A study of Mus musculus with 8 samples.

Results

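NF-kB is the transcription factor family through which receptors for tumour necrosis factor, interleukin 1 and microbial products switch on inflammatory genes. Adaptors and ubiquitin ligases gather at the activated receptor and build ubiquitin chains, these recruit the IKK kinases, and IKK releases NF-kB from its inhibitors. NF-kB then induces several of the proteins that take the chains apart or block the kinases, a negative feedback that limits inflammation in macrophages. Described here are 10 genes among the 36806 gene identifiers in each deposited table. Ripk2, Irak2, Traf1, Birc3, Tnfaip3, Tnip1, Tnip3, Cyld and Irak3 belong to these steps, and Tnfaip2 is a target gene of NF-kB. They were chosen by their symbols, with earlier results of these data known. All 10 were found once by symbol and reached at least 1 FPKM (fragments scaled to transcript length and to the total mapped) in every comparison, and in the TNFa comparison 9 had a usable status.

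The cells were macrophages derived from C57BL/6 mouse bone marrow with L929 fibroblast supernatant, taken on day 7, and their poly(A) RNA was sequenced. There were 8 libraries: 7 were from cells stimulated for 4 h with MALP2 (1 ng/ml, a mycoplasmal lipopeptide sensed by Tlr2 and Tlr6), CpG (100 nM, unmethylated DNA sensed by Tlr9), TNFa (10 ng/ml), IL1b (10 ng/ml), IFNg (100 ng/ml), TGFb1 (1 ng/ml) or IL4 (10 ng/ml), and 1 was from untreated cells. Each group is 1 library, so no difference below has a replicate check and no test was made. Every comparison uses the same untreated library, so a deviation of that library enters all 7. The error given in parentheses is the pair of confidence bounds the authors deposited for a value within a library, whose level is not stated in the tables. Changes are log2 of (stimulated FPKM + 1) over (untreated FPKM + 1) within 1 table. Levels set side by side come from the 7 tables joined through the untreated values, which differ between tables by 1 factor each.

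Of the 8 macrophage marker genes, the 7 with a usable status were above 1 FPKM in every library, with summed levels of 4045 to 7028 FPKM in the stimulated libraries and 5279 FPKM in the untreated one. Stromal markers summed to 87.7 FPKM after IFNg, 41.0 to 48.3 FPKM after the other 6 agents and 41.5 FPKM untreated. The B cell list summed to 16.7 to 32.5 FPKM in stimulated libraries and 132 FPKM in the untreated one, of which Ighm made 15.0 to 29.6 FPKM in stimulated libraries and 124 FPKM in the untreated one. Cd79b was at 1.58 to 2.84 FPKM in stimulated libraries and 7.81 FPKM in the untreated one, and Cd79a, Ms4a1 and Pax5 were at or below 0.0942 FPKM in all 8. Neutrophil markers summed to 152 FPKM (IL4) to 417 FPKM (IFNg) after stimulation and 264 FPKM untreated, and the dendritic cell and erythroid lists stayed at or below 1.91 FPKM. T and NK cell markers summed to 11.3 FPKM after IFNg, of which Lck made 11.2 FPKM, 0.876 to 1.88 FPKM after the other 6 agents and 1.04 FPKM untreated. The part of these shifts in the results was not tested, and in bulk RNA fewer cells of a type and less RNA per cell cannot be told apart. Absolute depth is unknown, and relative depth was estimated from low genes. Their commonest ratio of stimulated to untreated FPKM was taken as that of the FPKM of 1 read. This ratio was 2.04 after IFNg (148 of 1547 low genes) and 1.04 to 1.44 after the other 6 agents. By this estimate the IFNg library was the shallowest.

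Promoters of 3 of the inhibitor genes that were at least 2-fold higher after both microbial agents are shown first, with that of Cyld, an inhibitor that stayed within 2-fold of untreated, beside them. Each is the 250 bases before a RefSeq transcription start in build GRCm38.p6, read in the direction of the gene. Capitals mark matches on either strand to the 10-base NF-kB consensus (GGG, a purine, any 2 bases, 2 pyrimidines, CC). The windows are chr10:19015411-19015660, minus strand, for Tnfaip3, chr11:54962941-54963190, minus strand, for Tnip1, chr6:65590148-65590397, plus strand, for Tnip3, and chr8:88696778-88697027, plus strand, for Cyld.
Tnfaip3: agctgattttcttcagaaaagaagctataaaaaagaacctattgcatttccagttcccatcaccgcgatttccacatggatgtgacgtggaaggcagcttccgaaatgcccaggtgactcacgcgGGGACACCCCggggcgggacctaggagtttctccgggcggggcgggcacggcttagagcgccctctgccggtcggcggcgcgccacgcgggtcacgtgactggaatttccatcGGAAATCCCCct
Tnip1: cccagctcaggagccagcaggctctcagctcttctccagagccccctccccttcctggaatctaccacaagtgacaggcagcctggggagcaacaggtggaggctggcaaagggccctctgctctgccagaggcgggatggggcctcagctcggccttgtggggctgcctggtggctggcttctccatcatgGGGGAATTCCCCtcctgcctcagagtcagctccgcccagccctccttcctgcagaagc
Tnip3: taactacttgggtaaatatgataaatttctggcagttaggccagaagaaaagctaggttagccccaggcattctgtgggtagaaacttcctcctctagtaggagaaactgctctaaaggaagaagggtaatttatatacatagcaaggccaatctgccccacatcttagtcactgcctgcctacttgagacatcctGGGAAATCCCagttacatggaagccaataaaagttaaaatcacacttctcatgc
Cyld: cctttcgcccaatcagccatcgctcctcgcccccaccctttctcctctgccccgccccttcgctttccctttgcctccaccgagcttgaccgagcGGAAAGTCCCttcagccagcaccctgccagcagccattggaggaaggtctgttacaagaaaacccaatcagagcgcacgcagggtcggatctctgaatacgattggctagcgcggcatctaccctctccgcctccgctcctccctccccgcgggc
In the Tnfaip3 window shown the matches began 125 and 12 bases before the start, and the other Tnfaip3 window held none. The Tnip1 capitals hold 3 overlapping matches, which began 58, 57 and 56 bases before the start. The Tnip3 match began 54 bases and the Cyld match 155 bases before the start. Tnfaip2 held 1 match, 24 bases before its start, whereas the windows of Irak2, Traf1, Birc3 and Irak3 held none. Irak3, also an inhibitor gene at least 2-fold higher after both microbial agents, is not among the sequences shown. A match therefore lay in a window of 5 of the 9 genes with an entry (Ripk2 has none), and in 2581 of all 27025 genes (9.55%), where any gene may have several windows. Searching the 300-base windows singly, 5 of the 11 windows of these genes and 8.46% of all 32851 held a match. A match here is a string of letters and not a measured binding site.

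**Figure D1:**
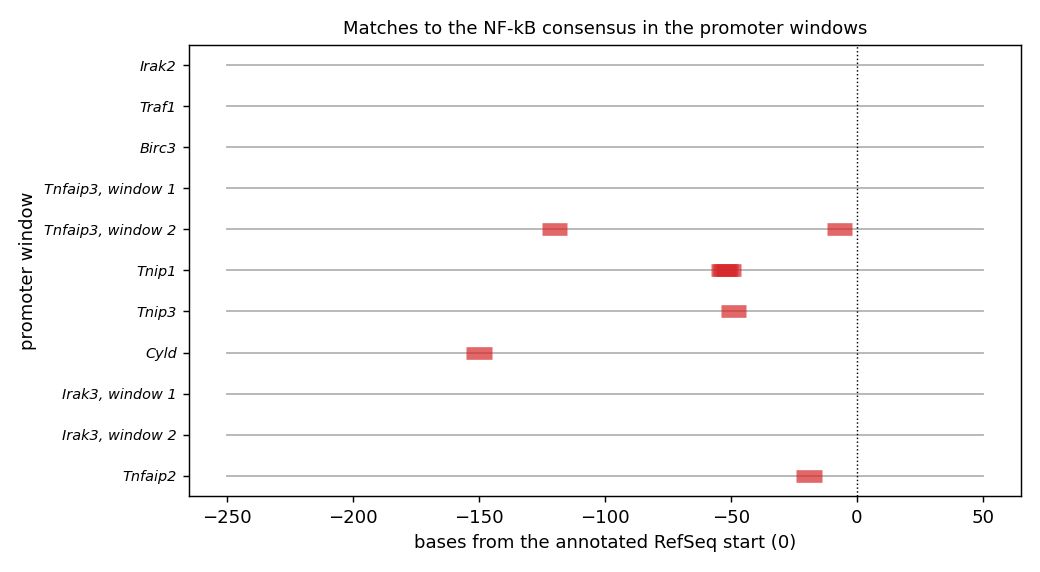
Position of each NF-kB consensus match (red) in the 300-base promoter windows of 9 genes (grey lines), in bases from the RefSeq start at 0. Matches lie within 155 bases of the start in Tnfaip3 window 2, Tnip1, Tnip3, Cyld and Tnfaip2, and the other windows have none.

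After the microbial agents nearly the whole group was higher. In the MALP2 comparison 9 of 10 genes were at least 2-fold higher and 0 lower, where 9.53% of the 12722 measured genes were that much higher and 11.7% lower. The CpG comparison also had 9 of 10 higher and 0 lower, against 9.43% and 11.2% of all measured genes. Their median log2 change was 2.01 after MALP2 and 1.97 after CpG, and that of all genes -0.10 and -0.12. Cyld was the gene under 2-fold in both.

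With TNFa, 7 of 9 genes were higher and 0 lower (all genes 8.92% and 10.4%), and with IL1b 7 of 10 were higher and 0 lower (7.29% and 8.57%). The medians were 1.14 and 1.40, and -0.10 and -0.09 over all genes. IFNg also had 7 of 10 higher and 0 lower (10.7% and 12.7%), with a median of 1.76 where that of all genes was -0.11.

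IL4, which signals through STAT6, gave the opposite direction for most of the group. 6 of 10 genes, Irak2, Traf1, Birc3, Tnip1, Irak3 and Tnfaip2, were at least 2-fold lower (11.9% of all genes), and 3 of 10, Ripk2, Tnfaip3 and Tnip3, were higher (9.86%), with a median of -1.39. After TGFb1, which signals through SMAD factors, Traf1 and Tnfaip2 were lower (2 of 10, against 9.15% of all genes) and Ripk2 and Tnfaip3 higher (2 of 10, against 7.15%), and the other 6 were under 2-fold. The median after TGFb1 was -0.26, and that of all genes -0.08.

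**Figure D2:**
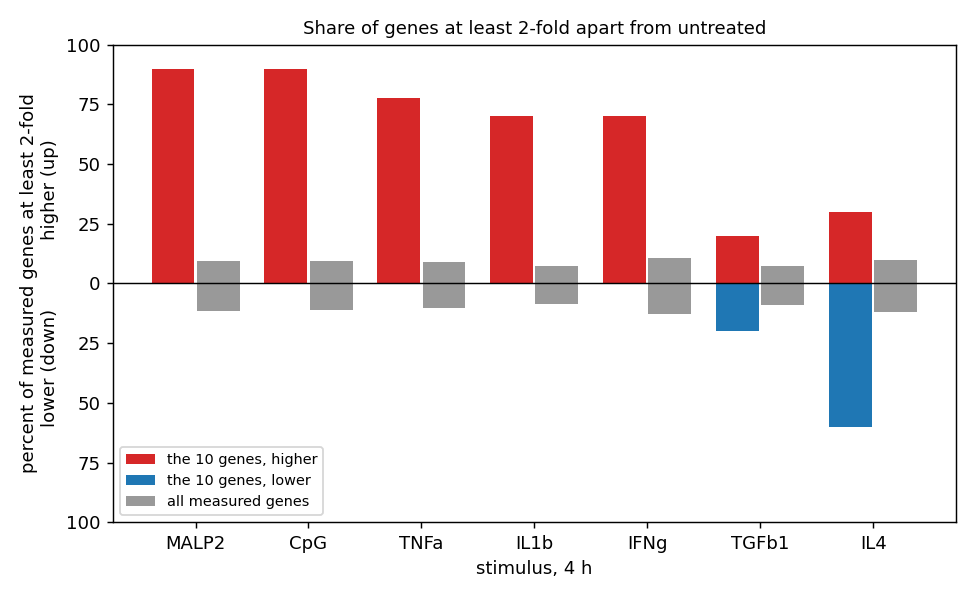
Percent of measured genes at least 2-fold higher (up) or lower (down) than untreated, for the 10 genes (red and blue, 9 genes after TNFa) and for all measured genes (grey), by stimulus. The red bars reach 9 of 10 after MALP2 and CpG, and the blue bar 6 of 10 after IL4.

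Of the 69 values with a usable status, 44 were at least 2-fold higher and 8 lower. In 48 of these 52 the authors' bounds of the stimulated and the untreated library did not overlap (92.3%). Over all measured genes this held for 10289 of the 17725 values at least 2-fold apart (58.0%). These shares were not matched for expression level, and the values of a gene share the same untreated library. The 4 of the 52 with overlapping bounds were Irak2 after TNFa, IL1b and CpG, and Tnip3 after IL4. The authors' deposited table called 51 of the 52, all but Tnip3 after IL4, in a test that compares 2 libraries and not the conditions. Counting only genes that are 2-fold higher and called there gave 9 of 10 after MALP2 (6.34% of all genes), 9 of 10 after CpG (6.60%), 7 of 9 after TNFa (6.40%) and 7 of 10 after IL1b (5.33%). It gave 7 of 10 after IFNg (7.56%), 2 of 10 after TGFb1 (5.09%) and 2 of 10 after IL4 (6.79%). For genes lower and called, 6 of 10 were counted after IL4 (8.14%), 2 of 10 after TGFb1 (6.58%) and 0 after MALP2 (8.0%), CpG (7.75%), TNFa (7.18%), IL1b (6.59%) and IFNg (8.37%). Nearest to the 2-fold line were Tnfaip3 after TGFb1 (log2 change 1.02) and Tnfaip2 after TNFa (1.08) on the inside, and Tnip1 after IFNg (0.97) and Birc3 after IL1b (0.87) on the outside.

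**Figure D3:**
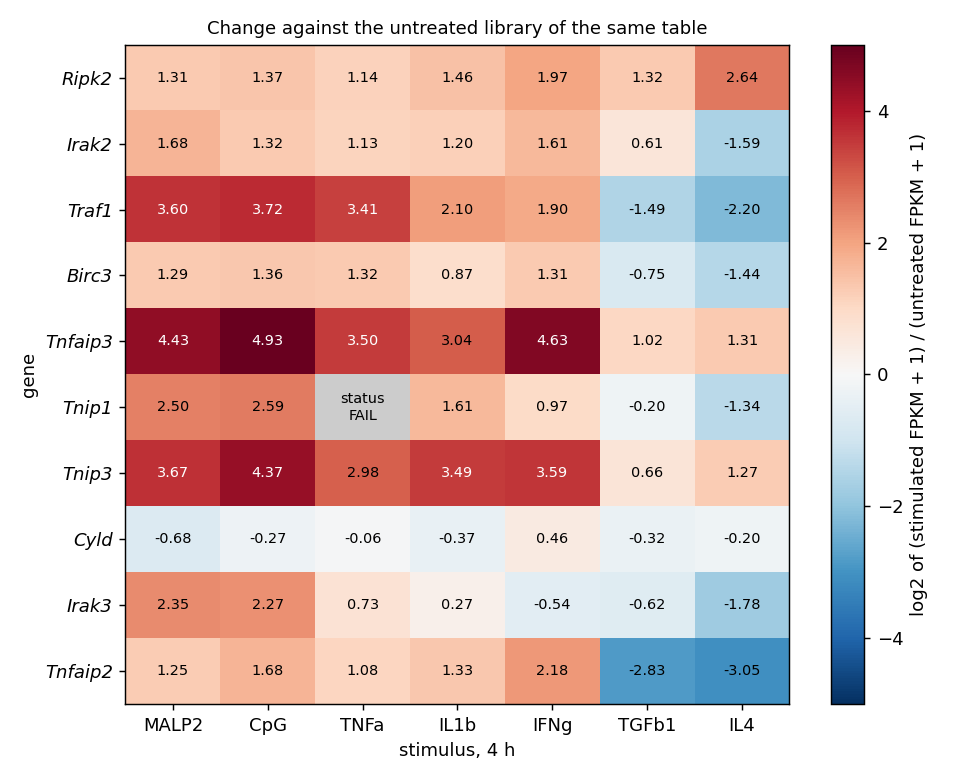
Log2 of (stimulated FPKM + 1) over (untreated FPKM + 1) for each gene (rows) and stimulus (columns), 1 library each, red for higher and blue for lower; the grey cell had a status of FAIL. Tnfaip3, Ripk2 and Tnip3 are positive in all 7 columns, Tnip3 with 1 value under 2-fold (0.66), Cyld lies between -0.68 and 0.46, and the IL4 column holds 6 values of -1.34 or lower.

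Ripk2 encodes the kinase that carries signals from the peptidoglycan sensors Nod1 and Nod2 to NF-kB (ENSMUSG00000041135, mm9 chr4:16049880-16090794). Its level was 15.8 FPKM after MALP2, 16.6 after CpG, 13.9 after TNFa, 17.7 after IL1b, 25.7 after IFNg, 15.9 after TGFb1 and 41.0 after IL4, against 5.77 FPKM in the untreated library. All 7 stimulated libraries were above the untreated one with bounds apart from it. The change ran from 1.14 (TNFa, 13.9 FPKM with bounds of 8.65 to 19.2, against 5.79 FPKM untreated with bounds of 3.41 to 8.16) to 2.64 after IL4. Among the 10 genes Ripk2 alone had its highest level after IL4, though the joined bounds of IL4 (25.2 to 56.7) and IFNg (15.4 to 35.9) overlap. The authors' deposited table called it in all 7 comparisons, with a q-value of 4.58e-10 after IL4 and 0.0145 after TNFa.

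Irak2 encodes a kinase of the IL1 receptor and Toll-like receptor complex that sustains signalling (ENSMUSG00000060477, mm9 chr6:113588461-113645003). It was at 66.7 FPKM after MALP2, 51.8 after CpG, 45.2 after TNFa, 47.6 after IL1b, 63.6 after IFNg, 31.4 after TGFb1 and 6.05 after IL4, against 20.2 FPKM untreated. The 5 highest libraries had overlapping bounds, and the bounds of TGFb1 overlapped both theirs and those of the untreated library. IL4 stood below all others: 6.30 FPKM (4.11 to 8.49) in the IL4 library against 21.0 FPKM (11.9 to 30.1) in the untreated one, a 3.01-fold lower level on the FPKM + 1 scale. After MALP2 it was 3.20-fold higher (65.7 FPKM against 19.8 FPKM untreated), and the log2 changes after TNFa, IL1b and CpG lay between 1.13 and 1.32, each with bounds that overlap those of the untreated library.

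Traf1 encodes an adaptor of TNF receptor complexes that binds the cIAP ubiquitin ligases (ENSMUSG00000026875, mm9 chr2:34797270-34817292), and it had the widest range of the 10 genes. Its level was 132 FPKM after MALP2, 144 after CpG, 115 after TNFa, 45.9 after IL1b, 40.2 after IFNg, 2.92 after TGFb1 and 1.42 after IL4, against 9.97 FPKM untreated. The highest level was 101 times the lowest. The libraries fell into steps whose bounds do not overlap: CpG, MALP2 and TNFa, then IL1b and IFNg, then untreated, TGFb1 and IL4 in that order.

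In its own table Traf1 was 130 FPKM (94.9 to 165) after MALP2 against 9.81 FPKM (7.38 to 12.2) untreated, 12.1-fold higher. After IL4 it was 1.48 FPKM (0.899 to 2.06) against 10.4 FPKM (7.83 to 13.0) untreated, 4.59-fold lower. TNFa and IL1b, both inflammatory cytokines, differed for this gene: 115 FPKM (88.7 to 142) after TNFa and 45.9 FPKM (35.2 to 56.6) after IL1b, 2.48-fold on the FPKM + 1 scale.

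Birc3 encodes the ubiquitin ligase cIAP2 of the TNF receptor complex (ENSMUSG00000032000, mm9 chr9:7848699-7873186). Its levels were 100 FPKM after MALP2, 106 after CpG, 103 after TNFa, 74.7 after IL1b, 102 after IFNg, 23.7 after TGFb1 and 14.3 after IL4, against 40.5 FPKM untreated. The first 5 libraries had overlapping bounds and folds of 1.82 (IL1b) to 2.57 (CpG). Only the IL4 library was at least 2-fold below untreated, at 14.9 FPKM (9.75 to 20.0) against 42.3 FPKM (27.7 to 56.8) untreated. Birc2, the neighbouring paralogue that encodes cIAP1, had log2 changes of -0.29 (MALP2) to 0.52 (IFNg).

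Tnfaip3 encodes A20, the ubiquitin-editing enzyme that ends NF-kB signalling (ENSMUSG00000019850, mm9 chr10:18720716-18735463). Its level was 164 FPKM after MALP2, 233 after CpG, 85.5 after TNFa, 61.8 after IL1b, 189 after IFNg, 14.5 after TGFb1 and 17.9 after IL4, against 6.64 FPKM untreated. CpG, IFNg and MALP2 formed the highest step, with bounds apart from those of TNFa and IL1b, and TGFb1 and IL4 were lower than all 5. In the CpG table it was 229 FPKM (160 to 297) against 6.53 FPKM (3.67 to 9.39) untreated, 30.5-fold higher and the largest fold of any of the 10 genes.

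IFNg gave a 24.7-fold higher Tnfaip3 level (179 FPKM against 6.28 FPKM untreated), above the 11.3-fold after TNFa (85.7 FPKM against 6.66 FPKM untreated). IL4 and TGFb1 also had more Tnfaip3 than the untreated library, after IL4 18.7 FPKM (12.7 to 24.7) against 6.92 FPKM (3.91 to 9.94) untreated, and after TGFb1 15.0 FPKM (9.70 to 20.3) against 6.85 FPKM (4.22 to 9.49) untreated. Tnfaip3 and Ripk2 were 2 of the 194 genes that were at least 2-fold higher in all 7 comparisons, among 12286 genes measured in all 7 (1.58%).

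Tnip1 encodes ABIN1, which holds A20 at ubiquitin chains (ENSMUSG00000020400, mm9 chr11:54724289-54776419). It was at 393 FPKM after MALP2, 417 after CpG, 211 after IL1b, 136 after IFNg, 59.6 after TGFb1 and 26.6 after IL4, against 68.6 FPKM untreated. The TNFa table lists it at 229 FPKM with a status of FAIL and no interval, so that value enters no count. CpG had bounds apart from IL1b (280 to 555 against 153 to 269), and MALP2 and CpG both had bounds apart from IFNg.

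In the MALP2 table Tnip1 was 387 FPKM (263 to 511) against 67.5 FPKM (47.3 to 87.8) untreated, 5.66-fold higher. After IL4 it was 27.7 FPKM (20.1 to 35.3) against 71.6 FPKM (51.2 to 91.9) untreated, 2.53-fold lower. Its locus holds the pseudogene Gm12230, which was at 0 to 0.832 FPKM in the 8 libraries.

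Tnip3 encodes ABIN3, a relative of ABIN1 (ENSMUSG00000044162, mm9 chr6:65540392-65584034). Its levels were 63.4 FPKM after MALP2, 104 after CpG, 38.8 after TNFa, 55.7 after IL1b, 60.4 after IFNg, 6.98 after TGFb1 and 11.1 after IL4, against 4.05 FPKM untreated. Bounds were wide, and those of the first 5 libraries overlap, while all 5 were apart from IL4, TGFb1 and untreated. After CpG it was 102 FPKM (44.6 to 159) against 3.98 FPKM (1.53 to 6.44) untreated, 20.7-fold higher. The authors' deposited table called neither IL4 (q-value 0.0746) nor TGFb1 (q-value 0.372) for this gene. Tnip1 and Tnip3 were both higher after MALP2, CpG and IL1b, whereas after IL4 Tnip1 had a log2 change of -1.34 and Tnip3 of 1.27.

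Cyld encodes a deubiquitinase that removes chains built at receptor complexes (ENSMUSG00000036712, mm9 chr8:91220927-91275844). Its levels were 7.18 FPKM after MALP2, 9.87 after CpG, 11.6 after TNFa, 9.13 after IL1b, 17.1 after IFNg, 9.54 after TGFb1 and 10.5 after IL4, against 12.1 FPKM untreated. No library differed from the untreated one by 2-fold, and the bounds of all 7 overlap those of the untreated library. Between stimuli, IFNg (11.1 to 23.0) and MALP2 (4.69 to 9.66) had bounds apart. The authors' deposited table called Cyld in none of the 7 comparisons, where the lowest q-value was 0.112 (MALP2). Of the 12286 genes measured in all 7 comparisons, 59.2% likewise stayed under 2-fold throughout.

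Irak3 encodes IRAK-M, an inhibitor of Toll-like receptor and IL1 receptor signalling (ENSMUSG00000020227, mm9 chr10:119578704-119661973). It stood at 90.7 FPKM after MALP2 and 85.9 after CpG, and at 28.9 after TNFa, 20.7 after IL1b, 11.4 after IFNg, 10.7 after TGFb1 and 4.29 after IL4, against 17.0 FPKM untreated. Both Toll-like receptor ligands were apart from all other libraries by the bounds (63.8 to 118 for MALP2 and 61.3 to 110 for CpG, against 21.0 to 36.8 for TNFa, the next). IL1b, whose receptor uses the same adaptor Myd88, was 1.21-fold above untreated (21.0 FPKM against 17.3 FPKM untreated) with overlapping bounds.

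In its table Irak3 was 89.2 FPKM (62.8 to 116) after MALP2 against 16.7 FPKM (11.7 to 21.8) untreated, 5.09-fold higher. On the FPKM + 1 scale the MALP2 level was 4.22-fold that of IL1b and 3.07-fold that of TNFa. After IL4 it was 4.47 FPKM (3.04 to 5.90) against 17.7 FPKM (12.4 to 23.1) untreated, 3.43-fold lower. Irak3 overlaps Tmbim4 on the other strand, and no source used here says whether reads were counted by strand. Reads in the stretch the 2 genes share may therefore have been counted for either, and their part in the Irak3 values was not tested. Tmbim4 was at 112 FPKM after MALP2, 101 after CpG and 56.3 after IL4, against 89.8 FPKM untreated. Its log2 changes were 0.31 (MALP2), 0.16 (CpG) and -0.66 (IL4).

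Tnfaip2 encodes a TNF-induced protein of membrane protrusions, a target of NF-kB (ENSMUSG00000021281, mm9 chr12:112680680-112693229). It was the most abundant of the 10 genes untreated and after MALP2, CpG, TNFa, IL1b and IFNg, but not after TGFb1 or IL4. Its level was 575 FPKM after MALP2, 773 after CpG, 508 after TNFa, 608 after IL1b, 1098 after IFNg, 33.1 after TGFb1 and 28.3 after IL4, against 241 FPKM untreated. The 5 higher libraries had overlapping bounds, and TGFb1 and IL4, which overlap each other, were apart from the untreated library. After IFNg it was 1038 FPKM (581 to 1496) against 228 FPKM (137 to 319) untreated, 4.54-fold higher. The lower side was the larger change: 29.5 FPKM (17.8 to 41.2) after IL4 against 251 FPKM (162 to 340) untreated, 8.27-fold lower, and 34.1 FPKM (22.9 to 45.3) after TGFb1 against 248 FPKM (171 to 326) untreated, 7.11-fold lower.

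**Figure D4:**
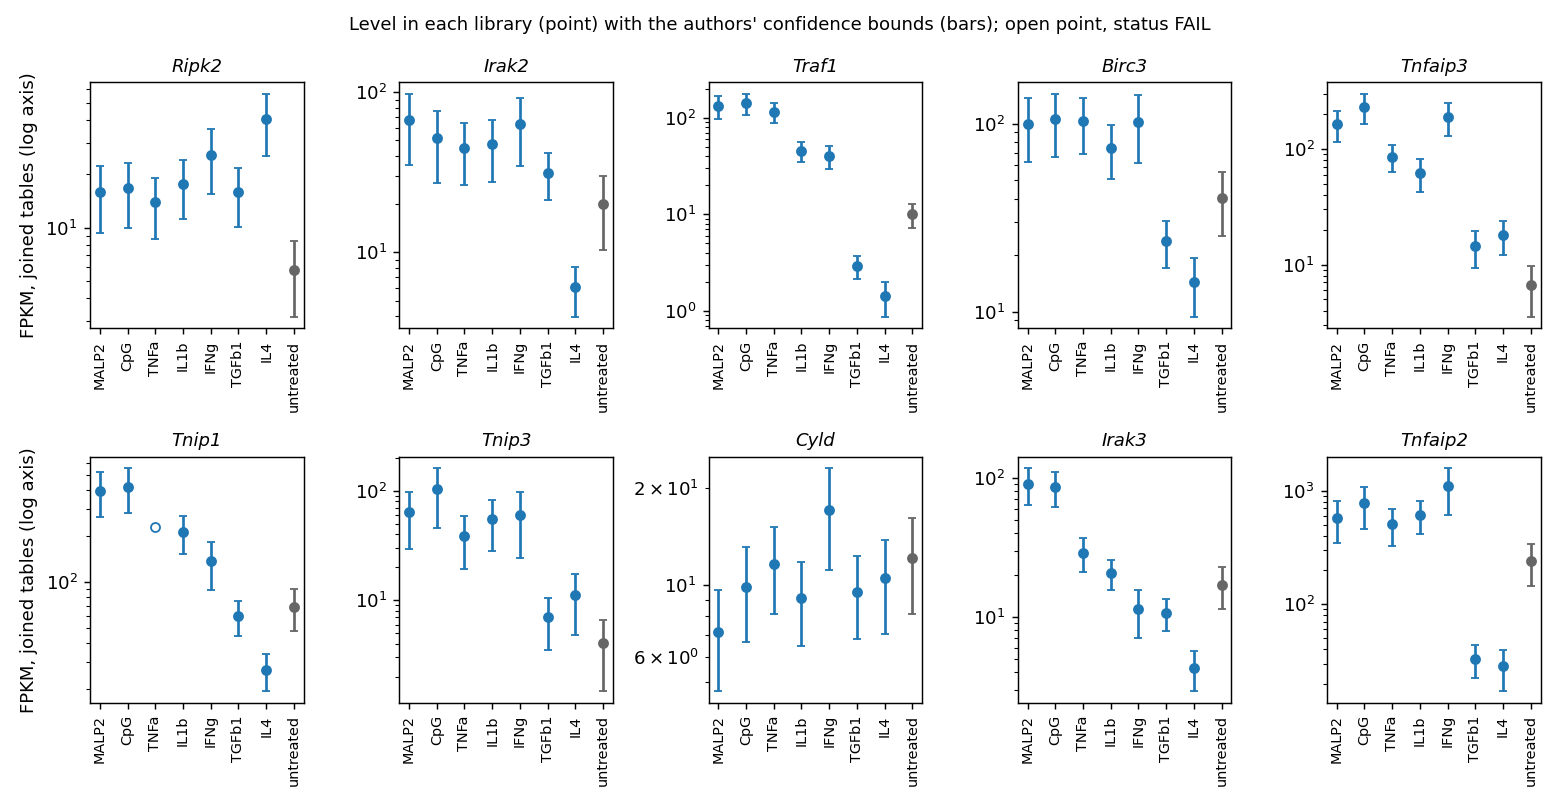
FPKM of each gene in the 7 stimulated libraries (blue) and the untreated one (grey), joined tables, on a log axis of its own per panel; bars are the authors' confidence bounds and the open point has a status of FAIL. Traf1 and Tnfaip2 lie below the untreated point after TGFb1 and IL4, and Irak3 is highest after MALP2 and CpG.

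Traf1 and Tnfaip2 shared a pattern: at least 2-fold higher after MALP2, CpG, TNFa, IL1b and IFNg, and at least 2-fold lower after TGFb1 and IL4. Of the 12286 genes measured in all 7 comparisons, 3 had it, the other being the acute-phase gene Saa3. A wider pattern, lower after IL4 and higher after both microbial agents, was met by 57 genes (0.464%), among them 5 of the 9 described genes that could be counted: Irak2, Traf1, Birc3, Irak3 and Tnfaip2. Tnip1, not counted for its status after TNFa, also met it, with log2 changes of -1.34 after IL4, 2.50 after MALP2 and 2.59 after CpG. Both patterns were picked after the values were seen.

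Genes of like profile were looked up over the 8 joined libraries among 5307 genes, by Pearson's r of log2(FPKM + 1), which is a description over 8 points that share the untreated scaling. Nearest to Tnfaip3 were Il1rn, the IL1 receptor antagonist, and Junb, an AP-1 factor (both r = 0.978), and Phlda1 (0.972). For Irak2 they were Tpst2 (0.980), Cxcl16 (0.976), a membrane-bound chemokine, and St3gal5 (0.958). Irak3 was followed by Eif4ebp1 (0.979), an inhibitor of cap-dependent translation, Gm6377 (0.975) and Acp5 (0.970). Tnfaip2 had Rela (0.987), the NF-kB subunit p65, Clec2d (0.983) and Slfn2 (0.981), and Cyld had Rp2 (0.986), Arhgef12 (0.949) and Nfix (0.947). Pearson's r does not compare the size of changes. Rela had log2 changes of -0.89 (IL4) to 0.51 (IFNg), all under 2-fold, and Tnfaip2 of -3.05 (IL4) to 2.18 (IFNg).

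Other genes of the pathway were counted in 4 lists. Over all measured genes, 7.15% (TGFb1) to 10.7% (IFNg) were at least 2-fold higher and 8.57% (IL1b) to 12.7% (IFNg) lower. The all-gene medians were -0.12 (CpG) to -0.08 (TGFb1). The 11 NF-kB subunits and IkB proteins came closest to the described genes: 9 were at least 2-fold higher after MALP2, 10 after CpG, 6 after TNFa, 8 after IL1b, 9 after IFNg, 0 after TGFb1 and 1 after IL4, and none were lower except 3 after IL4. Their median was 1.93 after MALP2, 2.20 after CpG and -0.61 after IL4. Nfkbia, the classical NF-kB inhibitor, was 625 FPKM after MALP2 against 52.5 FPKM untreated and 54.7 FPKM after IL4 against 55.7 FPKM untreated. Nfkbiz, a nuclear IkB protein, was 188 FPKM after CpG against 4.50 FPKM untreated and 0.564 FPKM after IL4 against 4.78 FPKM untreated. Nfkbie was 131 FPKM after IFNg against 8.63 FPKM untreated, its largest change (3.78). Nfkb1, the p105 precursor gene, was higher after IL4 (281 FPKM against 73.4 FPKM untreated), and Relb was lower there (7.21 FPKM against 17.5 FPKM untreated).

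Of 16 receptor-proximal adaptors and kinases 6 were higher and 2 lower after IFNg, 4 and 1 after MALP2, 4 and 0 after CpG, 2 and 0 after TNFa and IL1b, 0 and 1 after TGFb1, and 1 and 3 after IL4. Over all genes 10.7% were higher and 12.7% lower after IFNg, 9.53% and 11.7% after MALP2, and 9.43% and 11.2% after CpG. These shares were 8.92% and 10.4% after TNFa, 7.29% and 8.57% after IL1b, 7.15% and 9.15% after TGFb1, and 9.86% and 11.9% after IL4. The list's median lay between -0.49 (IL4) and 0.11 (CpG). Traf3, a signalling adaptor, was at least 2-fold higher after the 5 agents other than TGFb1 and IL4, for example 24.6 FPKM after CpG against 8.74 FPKM untreated.

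Among 16 ubiquitin ligase and IKK genes, at most 2 were higher and at most 2 lower in any comparison, and the medians were -0.14 (TGFb1) to 0.42 (IFNg). Ikbke, an IKK-related kinase gene, was higher in 4 comparisons and lower in 2: 245 FPKM after MALP2 against 60.9 FPKM untreated, and 24.9 FPKM after TGFb1 against 63.9 FPKM untreated.

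The 15 other inhibitors and deubiquitinases had medians of -0.33 (MALP2) to -0.01 (IL1b and CpG), with up to 3 genes higher and up to 3 lower. Zc3h12a, the RNase Regnase-1 that degrades cytokine mRNA, was 157 FPKM after MALP2 against 11.6 FPKM untreated and 176 FPKM after CpG against 11.6 FPKM untreated. Cflar, an inhibitor of caspase-8, was higher in 5 comparisons, at 80.3 FPKM after IFNg against 22.7 FPKM untreated. Tnfaip8l2 and Sigirr, restraints on Toll-like receptor signalling, were at least 2-fold lower in all 7, as were 3.04% of the genes measured in all 7. Tnfaip8l2 was 34.2 FPKM after TNFa against 225 FPKM untreated, and Sigirr 0.265 FPKM after IFNg against 2.65 FPKM untreated.

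**Figure D5:**
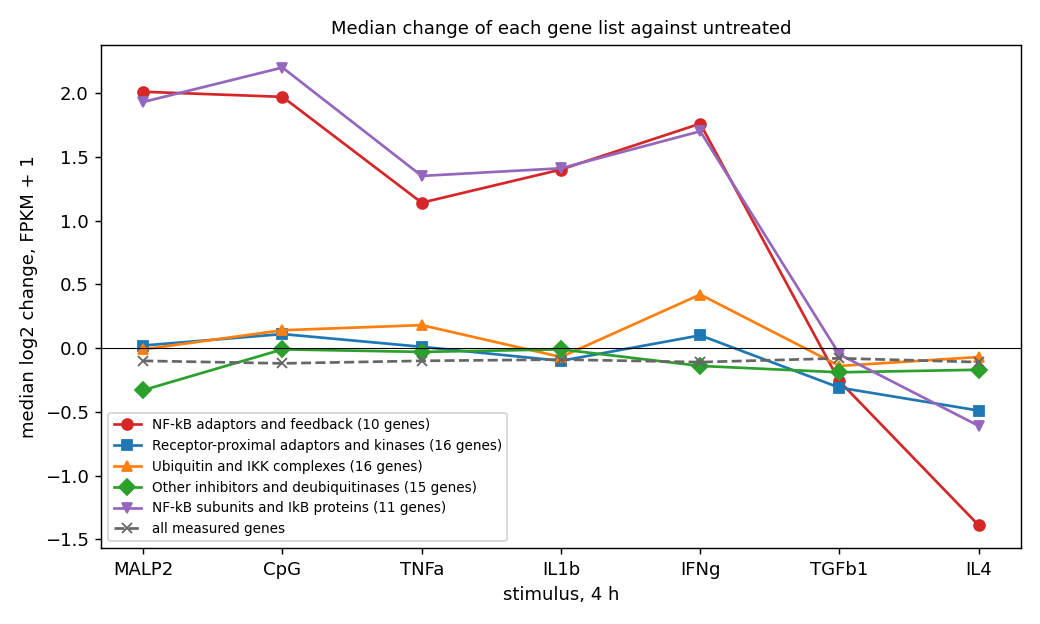
Median log2 change of the 10 genes (red), of 4 other lists of the pathway and of all measured genes (dashed) against untreated, by stimulus, 1 library each. The 10 genes and the NF-kB subunits and IkB proteins lie at 1.14 or above after the 5 agents from MALP2 to IFNg, while the other 3 lists stay between -0.49 and 0.42.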

How the data were processed

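Poly(A) RNA-seq of 8 libraries, 1 per group by the labels, was used. The submitters' processing notes name build mm9, TopHat 1.3.1, Cufflinks 1.2.1 and Cuffdiff 1.2.1; no source used here gives options, annotation or strand handling. The authors deposited FPKM with confidence bounds for a stimulated and the untreated library in each of 7 tables, per the file headers. In 7 further tables the authors deposited q-values with a call per gene; the highest q-value called was 0.04999. The deposited loci count their starts from 0 (the span equals the GENCODE length for 13282 genes), so 1 was added to each start.

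Symbols came from GENCODE M21 for 31840 of 36806 identifiers. A gene was measured with a status of OK in both libraries (336 to 388 genes failed this) and at least 1 FPKM in either, and was called at 2-fold on the FPKM + 1 scale, a scale that understates changes of low genes. Tables were joined by the ratio of their untreated values. Promoter sequences are RefSeq's. All 10 genes were named, with 3 genes of most similar profile each (of which those of 5 genes are printed), and of each list the 3 largest changes and genes apart in 4 or more comparisons, of which some are given. The members, lists and rules were chosen with earlier results of these data known. The counting rule was tested on simulated data in which genes changed by well over 2-fold or not at all. That test does not show how the rule treats values near the 2-fold line. Python 3.11.15, numpy 2.4.6, pandas 2.3.3 and matplotlib 3.10.9 were used.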

Additional observations from a re-analysis of the deposited data

How the results depend on the processing

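No paired analysis was possible because each group has 1 library. Counts of higher and lower genes stayed within 1.5 times when the pseudocount was 0.1, when low genes were filtered at 5 FPKM or not at all, after centring, and when bounds had to be apart or the authors had to call the gene. Centring removed a median change of -0.102 to -0.071 and brought IFNg to 8 higher genes (Tnip1 passed), and keeping values of any status, an alternative chosen after seeing the data, brought TNFa to 8. All 52 values at least 2-fold apart kept their direction with a pseudocount of 0.1 and with centring. At least 4-fold higher were 3 genes after IFNg, 1 after IL4, 3 after TNFa, 0 after TGFb1, 3 after IL1b, 5 after MALP2 and 5 after CpG, and at least 4-fold lower 2 after IL4 and 1 after TGFb1. Of all measured genes 1.64% (IL1b) to 3.42% (IFNg) were 4-fold higher, 2.07% 4-fold lower after IL4 and 1.5% after TGFb1.

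Set against the median of the other 6 stimulated libraries in place of the untreated one, higher genes numbered 2 after IFNg, 1 after IL4, 1 after TNFa, 0 after TGFb1, 0 after IL1b, 4 after MALP2 and 5 after CpG, and lower genes 1 after IFNg, 8 after IL4, 7 after TGFb1 and 1 after IL1b. Over all genes on that reference the higher share was 1.25% (IL1b) to 7.68% (IFNg), and the lower share 3.52% after IFNg, 5.88% after IL4, 4.04% after TGFb1 and 1.11% after IL1b. On that reference 15 of the 52 values turned sign. Tnfaip3 was -2.73 after IL4, -3.02 after TGFb1, -1.0 after IL1b and -0.40 after TNFa, and Tnip3 -2.28 after IL4 and -0.57 after TNFa. Traf1 was -0.99 after IFNg and -0.75 after IL1b, Irak2 -0.13 after TNFa and -0.03 after IL1b, and Tnfaip2 -0.22 after TNFa. Ripk2 was -0.28 after TNFa, -0.10 after TGFb1, -0.11 after MALP2 and -0.01 after CpG. That reference contains stimulated libraries and asks another question. By the estimate from low genes, depth limits the IFNg library most, and without replicates the bounds cover only error within a library.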

Other observations

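Nod1 and Nod2 are the receptors that signal through Ripk2. Nod1 was 51.6 FPKM after IFNg against 7.42 FPKM untreated (log2 change 2.64), but 1.34 FPKM after IL4 against 8.18 FPKM untreated (-1.97), the library with the most Ripk2, and 0.992 FPKM after TGFb1 against 8.10 FPKM untreated (-2.19). Nod2 was 24.6 FPKM after IFNg against 2.45 FPKM untreated (2.89). It was also higher after MALP2 (1.99), CpG (1.81), TNFa (1.70) and IL1b (1.71), and 0.991 FPKM after IL4 against 2.70 FPKM untreated (-0.90). Ripk2 was at least 2-fold higher in all 7 comparisons, which share the same untreated library (5.77 FPKM), while Nod1 and Nod2 changed in both directions. Whether the Ripk2 level depends on either receptor was not tested. Tifa, an adaptor of Traf6, was 7.71 FPKM after IL4 against 48.1 FPKM untreated (-2.49) and within 2-fold of untreated in the other 6 comparisons. Map3k8, the kinase Tpl2, was 29.1 FPKM after CpG against 8.73 FPKM untreated (1.63) and 3.08 FPKM after TNFa against 8.90 FPKM untreated (-1.28), and 2.37 FPKM after TGFb1 against 9.16 FPKM untreated (-1.59).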
